A study of Homo sapiens with 6 samples.

Results

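The inflammasome sensors NLRP1, CARD8, AIM2, NLRP3 and NLRC4, the adaptor PYCARD, the peptidases DPP8 and DPP9, the kinase NEK7 and the membrane rupture protein NINJ1 were examined in KYSE410 cells with and without ADAR1. These 10 genes were chosen by symbol for their roles, and each symbol matched 1 of the 58735 gene rows. KYSE410 is a cell line from an oesophageal squamous cell carcinoma. RNA was sequenced from 3 libraries of the wild type line, titled NC and used here as control, and from 3 libraries of the ADAR1 knockdown derivative, named siADAR1. The labels list no treatment or allele beyond that in either group. They do not say whether the controls received a non-targeting siRNA, so effects of delivery or of off-target binding cannot be told apart from loss of ADAR1.

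Inflammasomes are protein platforms that cells assemble in the cytosol when a sensor detects infection or damage. Most sensors recruit PYCARD, also called ASC, which gathers and activates caspase-1. Caspase-1 then matures interleukin-1 beta and interleukin-18 and cleaves gasdermin D, whose pores kill the cell by pyroptosis. NINJ1 afterwards tears the plasma membrane. NLRP1 is the main sensor of human keratinocytes and related squamous epithelia, and long double-stranded RNA is among its triggers. CARD8 is built on the same plan, and DPP8 and DPP9 hold both sensors inactive.

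Promoter sequences were read first, because the 10 genes fall into a set with counts and a set nearly without, and CpG content differs between such sets of genes. RefSeq promoter windows on GRCh38.p14, each 300 bases long, were found for 8 of the 10 genes, in 19 windows. NLRP1 and NEK7 had no entry. The stretches printed are those of NINJ1 as the gene with the most CpG, of DPP8 as a second gene rich in CpG, of CARD8 as a gene that fell after knockdown, and of NLRP3 as a sensor near the counting floor. Each runs 5′ to 3′ upstream of the listed start and ends before the first annotated exon base, with CpG pairs in capitals.

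NINJ1, chr9:93134289-93134501, minus strand: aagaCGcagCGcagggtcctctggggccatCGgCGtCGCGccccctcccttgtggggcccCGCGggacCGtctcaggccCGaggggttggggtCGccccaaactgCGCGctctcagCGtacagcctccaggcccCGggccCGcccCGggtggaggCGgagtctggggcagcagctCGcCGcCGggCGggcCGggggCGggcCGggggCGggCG
DPP8, chr15:65517705-65517939, minus strand: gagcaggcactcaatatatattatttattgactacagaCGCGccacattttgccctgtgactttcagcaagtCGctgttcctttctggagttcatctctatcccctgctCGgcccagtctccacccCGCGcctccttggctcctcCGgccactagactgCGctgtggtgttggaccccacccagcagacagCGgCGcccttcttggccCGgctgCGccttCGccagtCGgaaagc
CARD8, chr19:48255947-48256196, minus strand: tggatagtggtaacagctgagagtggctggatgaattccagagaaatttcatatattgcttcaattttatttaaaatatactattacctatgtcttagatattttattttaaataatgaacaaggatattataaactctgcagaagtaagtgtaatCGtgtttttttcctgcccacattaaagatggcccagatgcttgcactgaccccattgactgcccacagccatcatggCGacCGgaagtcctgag
NLRP3, chr1:247415923-247416155, plus strand: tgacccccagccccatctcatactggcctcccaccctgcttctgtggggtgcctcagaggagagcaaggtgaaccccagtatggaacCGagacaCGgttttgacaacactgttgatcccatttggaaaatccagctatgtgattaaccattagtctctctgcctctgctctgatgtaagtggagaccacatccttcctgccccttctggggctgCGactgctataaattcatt

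The printed stretches held 27 CpG in 213 bases for NINJ1, 14 in 235 for DPP8, 3 in 250 for CARD8 and 3 in 233 for NLRP3. Over whole windows, taking for each gene its window with the most CpG, NINJ1 had 38, DPP8 31, DPP9 24 and PYCARD 23. CARD8 and NLRC4 had 6 each, NLRP3 had 5 and AIM2 had 2. Protein-coding genes with enough counts to be tested had a median of 28 CpG, and 5.46% of them had 6 or fewer. Protein-coding genes below that count had a median of 8, and 44.8% of them had 6 or fewer. The 3 sensors nearly without counts were thus among the promoters poor in CpG, and CARD8 was a low-CpG gene with counts. The NF-kB consensus was found, on either strand, in 1 of 5 CARD8 windows and in none of the other members' windows, against 5.91% of all 35116 windows. The interferon-stimulated response core GAAANNGAAA was found in the AIM2 window and in 2 overlapping CARD8 windows, against 3.57% of all windows. These matches describe letters in a window and say nothing of binding.

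Total counts ranged from 15175619 to 17329443 per library. ADAR, the knockdown target, stood at 431.5 to 455.6 CPM (counts scaled to library size) in the control libraries and at 77.6 to 95.8 in siADAR1, and fell by 2.32 ± 0.09 (SE) on the log2 scale. Changes were wide: 51.0% of the 15294 tested genes passed an adjusted p below 0.05 in edgeR's quasi-likelihood test, 26.0% higher and 25.0% lower in siADAR1. With library totals as the only scaling the split was 4892 higher and 2887 lower, in place of 3973 and 3831, and the median log2 fold change of all genes moved from 0.00 to 0.12. Libraries numbered 1 stood apart within each group: a chi-square per degree of freedom over gene counts was 14.1 to 18.0 for pairs that held one, and 3.95 and 5.02 for the other pairs. Whether the libraries are separate cultures is not stated, and p-values here measure library spread alone, which may be technical. The squamous identity was checked on 11 markers. Of these 10 had enough counts to be tested, with 3 higher and 4 lower in siADAR1, and summed levels of 1671 to 1697 CPM in control and 1572 to 1677 in siADAR1. Within that sum KRT6A went from 26.3 ± 2.79 to 5.61 ± 1.94 CPM and DSG3 from 22.5 ± 5.19 to 65.2 ± 4.12 CPM (SD, n = 3), both named after their values were seen. The sum was led by CDH1, PERP and KRT17, with control means of 575.2, 326.4 and 292.2 CPM, so it says little of the other markers. The transcription factors TP63 and SOX2 had control means of 124.5 and 1.24 CPM. KRT14, a defining basal keratin, had 0 to 2 counts per library. Markers of myeloid cells, where NLRP3 and NLRC4 are mostly known from, were near 0: 10 of them summed to 0.723 to 1.03 CPM in control and 1.59 to 3.44 in siADAR1, and LYZ, AIF1 and TYROBP had no count. CSF1R was the myeloid marker with enough counts to be tested, with 1, 3 and 2 counts in control and 12, 10 and 14 in siADAR1. It passed the filter on low counts through siADAR1 alone, so its higher call was favoured by the filter. ITGAM had 3, 0 and 1 counts in control and 40, 9 and 4 in siADAR1 (both named after their values were seen). CD14, named likewise, went the other way, with 11, 11 and 7 counts in control and 7, 4 and 7 in siADAR1. Of 7 fibroblast markers, which summed to 40.4 to 59.5 CPM in control and 72.3 to 85.0 in siADAR1, 2 were tested and both were higher, LUM by 0.73 ± 0.14 and COL1A1 by 0.44 ± 0.17 (SE) on the log2 scale, named after their values were seen, with DCN at 0. Of 6 endothelial markers 1 was tested and did not pass, with KDR at 0.

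Levels per exon length set the 10 genes in a wide order. That length covers all annotated exons of a gene, 12808 bases for NLRP1 and 12912 for CARD8. Genes whose transcripts use few of these bases read lower. In the deposited FPKM (fragments scaled to exon length and library size), the control means were 48.5 ± 8.19 (SD, n = 3) for NEK7, 19.1 ± 4.31 for NINJ1 and 16.0 ± 1.38 for DPP9. They were 9.59 ± 1.51 for PYCARD, 5.44 ± 0.158 for DPP8, 1.49 ± 0.0749 for CARD8 and 0.359 ± 0.0403 for NLRP1. AIM2, NLRC4 and NLRP3 followed at 0.193 ± 0.155, 0.141 ± 0.142 and 0.0273 ± 0.0148 FPKM. The 5 sensors thus lay below the adaptor, peptidases, kinase and rupture protein. Control libraries of NINJ1 and DPP9 overlapped in level, as did those of NLRP1 with AIM2, AIM2 with NLRC4, and NLRC4 with NLRP3, and no other neighbours in the order overlapped. The siADAR1 means ranked in the same order, with PYCARD and DPP8 now overlapping, at 6.24 ± 1.34 and 5.68 ± 0.176 FPKM. NINJ1 with DPP9, and NLRP1 with AIM2, no longer overlapped in siADAR1.

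**Figure D1:**
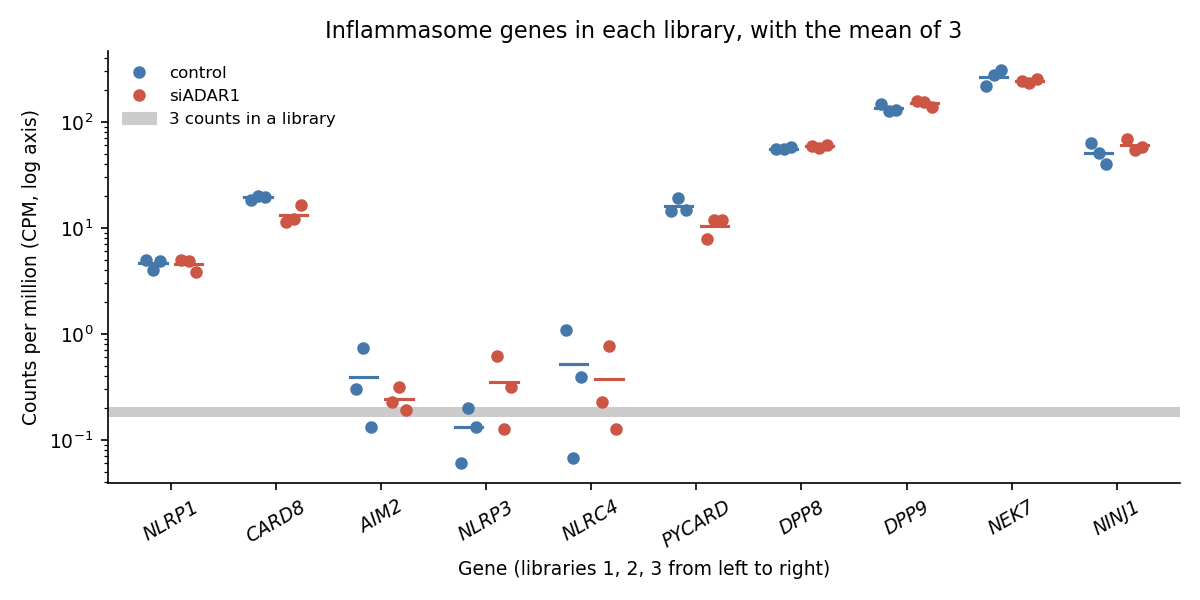
CPM of each of the 10 genes in each library (dots) with the mean of 3 (bars), on a log axis; control is blue, siADAR1 red, and the grey band marks 3 counts in a library. PYCARD and CARD8 are the genes whose groups do not overlap, and AIM2, NLRP3 and NLRC4 lie around the band.

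Knockdown of ADAR1 was followed by a lower level of 2 of the 10 genes, PYCARD and CARD8, to 65.2% and 68.6% of control. NLRP1, DPP8, DPP9, NEK7 and NINJ1 did not pass the test, and NLRP3, NLRC4 and AIM2 had too few counts to be tested. Of the 7 tested genes, 2 were lower, beside 25.0% lower over all tested genes, and 0 were higher, beside 26.0%. The number higher was also 0 at an unadjusted p below 0.05 and with DESeq2 or limma-voom. It was 1 with library totals alone (DPP9) and 2 without control replicate 1 or without both libraries numbered 1 (DPP9 and NINJ1). In CPM, 2 of the 7 had groups that did not overlap, beside 60.3% of all tested genes. The median log2 fold change of the 7 was -0.02, beside 0.00 over all tested genes. In RNA from whole cultures, fewer cells that express a gene and less RNA per cell cannot be told apart.

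NLRP1 (ENSG00000091592, chromosome 17, 5499427 to 5619424, minus strand, GRCh38) was present at a low level in all 6 libraries. It stood at 5.02, 4.04 and 4.86 CPM in control replicates 1 to 3 and at 4.96, 4.84 and 3.88 CPM in siADAR1, from 60 to 88 counts per library. The groups overlapped throughout. NLRP1 had a log2 fold change of -0.02 ± 0.22 (SE), an edgeR adjusted p of 0.935 and a 95% interval from -0.49 to 0.44. Changes within that interval were not excluded. With library totals as the only scaling the value was 0.09.

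CARD8 (ENSG00000105483, chromosome 19, 48180770 to 48255946, minus strand), the second sensor held by DPP8 and DPP9, fell. Control libraries were close together, at 18.4, 20.2 and 19.8 CPM, and siADAR1 libraries stood at 11.3, 12.2 and 16.5 CPM. All siADAR1 values lay below all control values, with replicate 3 nearest to control. The mean went from 19.4 ± 0.955 to 13.3 ± 2.79 CPM (SD, n = 3), a log2 fold change of -0.54 ± 0.16 (SE) with an edgeR adjusted p of 0.0113. The call was lost without siADAR1 replicate 2 (-0.49, adjusted p = 0.0507) and in limma on log2(FPKM + pseudocount). There the value was -0.52 at a pseudocount of 0.1 (adjusted p = 0.0612) and -0.31 at a pseudocount of 1, which understates changes of low genes (adjusted p of 0.0635, or 0.118 with no filter). Adjusted p for CARD8 ran from 0.00184 to 0.118 across the alternatives. ZSWIM9 lies on the opposite strand and shares 313 of CARD8's 12912 exonic bases. It was higher, at 26.4 ± 2.01 against 14.1 ± 2.46 CPM (SD, n = 3). No strand-marking step is named, so reads from those bases cannot be told apart.

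The 3 remaining sensors lay around the floor of 3 counts per library, which is 0.169 to 0.202 CPM and covers counting error only. NLRP3 (ENSG00000162711, chromosome 1, 247416156 to 247449108), which responds to potassium efflux and membrane stress, had 1, 3 and 2 counts in control and 11, 2 and 5 in siADAR1. NLRC4 (ENSG00000091106, chromosome 2, 32224453 to 32265854), which acts with NAIP on bacterial flagellin, had 18, 1 and 6 counts in control and 4, 12 and 2 in siADAR1. AIM2 (ENSG00000163568, chromosome 1, 159062484 to 159147096), a sensor of cytosolic double-stranded DNA, had 5, 11 and 2 counts in control and 4, 5 and 3 in siADAR1. Groups overlapped for each of the 3. NLRC4 ranged from 1 to 18 counts within control alone, and its group means were 0.516 ± 0.521 and 0.372 ± 0.343 CPM (SD, n = 3). Fitted without a filter on low counts, NLRP3 had a log2 fold change of 1.41 ± 1.04 (SE) with an adjusted p of 0.380, NLRC4 of -0.49 ± 0.74 with 0.659 and AIM2 of -0.66 ± 0.89 with 0.617. The library with 11 counts of NLRP3, siADAR1 replicate 1, was also the one with 40 counts of ITGAM. Among the other myeloid markers that library had 12 counts of CSF1R, 7 of CD14 and 1 each of PTPRC and SPI1. LYZ, CD68, TYROBP, AIF1 and FCER1G had 0 there. The part of myeloid transcripts in the NLRP3 counts was not tested.

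PYCARD (ENSG00000103490, chromosome 16, 31201485 to 31203450, minus strand) fell. This adaptor joins the pyrin domain of a sensor to the CARD of caspase-1. Control libraries stood at 14.4, 19.0 and 14.9 CPM and siADAR1 libraries at 7.90, 11.8 and 11.8 CPM. The groups did not overlap, with siADAR1 replicate 1 lowest of all and control replicate 2 highest. The mean went from 16.1 ± 2.52 to 10.5 ± 2.26 CPM (SD, n = 3), a log2 fold change of -0.62 ± 0.18 (SE) with an edgeR adjusted p of 0.0131. The call was lost without control replicate 2 (log2 fold change -0.49, adjusted p = 0.0716) and on FPKM with no filter (adjusted p = 0.0734). Adjusted p for PYCARD ran from 0.00114 to 0.0734 across the alternatives. PYCARD-AS1, on the opposite strand over 991 of PYCARD's 1661 exonic bases, had 0 counts in all libraries. No strand-marking step is named, so reads from those bases cannot be told apart. The 0 thus does not show that the antisense RNA was absent.

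DPP8 and DPP9 are intracellular dipeptidyl peptidases that bind NLRP1 and CARD8 and keep them inactive. DPP8 (ENSG00000074603, chromosome 15, 65442463 to 65517704) stood at 55.1, 55.3 and 57.9 CPM in control and at 58.7, 56.8 and 60.6 CPM in siADAR1, with the groups overlapping. Its log2 fold change was 0.07 ± 0.09 (SE), with a 95% interval from -0.13 to 0.26 and an edgeR adjusted p of 0.575. DPP9 (ENSG00000142002, chromosome 19, 4675224 to 4724673) stood at 147.6, 126.3 and 128.6 CPM in control and at 157.0, 155.8 and 139.7 CPM in siADAR1. Control replicate 1 lay above siADAR1 replicate 3, so the groups overlapped. The log2 fold change of DPP9 was 0.17 ± 0.09 (SE), with a 95% interval from -0.03 to 0.37 and an adjusted p of 0.144. It passed without control replicate 1 (0.23, adjusted p = 0.0386), without both libraries numbered 1 (0.21, adjusted p = 0.0104) and with library totals alone (0.29, adjusted p = 0.0192). DPP9-AS1, on the opposite strand, shares 1528 of DPP9's 8324 exonic bases, and reads from those bases cannot be told apart.

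NEK7 (ENSG00000151414, chromosome 1, 198156963 to 198322420), a mitotic kinase that bridges NLRP3 subunits, had the highest level of the 10 genes. It stood at 218.7, 279.9 and 306.8 CPM in control and at 246.2, 235.7 and 252.2 CPM in siADAR1. Control replicate 1 lay below all siADAR1 libraries, and the other two controls above them. NEK7 had a log2 fold change of -0.13 ± 0.11 (SE), a 95% interval from -0.37 to 0.10 and an edgeR adjusted p of 0.327. Without control replicate 1 it was -0.27 (adjusted p = 0.0121), without both libraries numbered 1 it was -0.27 (adjusted p = 9.82e-04), and with library totals alone it was -0.02.

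NINJ1 (ENSG00000131669, chromosome 9, 93121489 to 93134288), a small membrane protein that clusters to rupture the dying cell, did not pass either. Values were 63.1, 50.4 and 40.0 CPM in control and 69.0, 54.4 and 57.7 CPM in siADAR1. The highest library of each group was replicate 1, and control replicate 1 lay above siADAR1 replicates 2 and 3. NINJ1 had a log2 fold change of 0.24 ± 0.15 (SE), with a 95% interval from -0.09 to 0.56 and an edgeR adjusted p of 0.210. It passed without control replicate 1 (0.41, adjusted p = 0.0189) and without both libraries numbered 1 (0.31, adjusted p = 0.00892), and was 0.08 without control replicate 3. DPP9, NEK7 and NINJ1 thus shared 1 feature: each passed once control replicate 1 was left out.

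**Figure D2:**
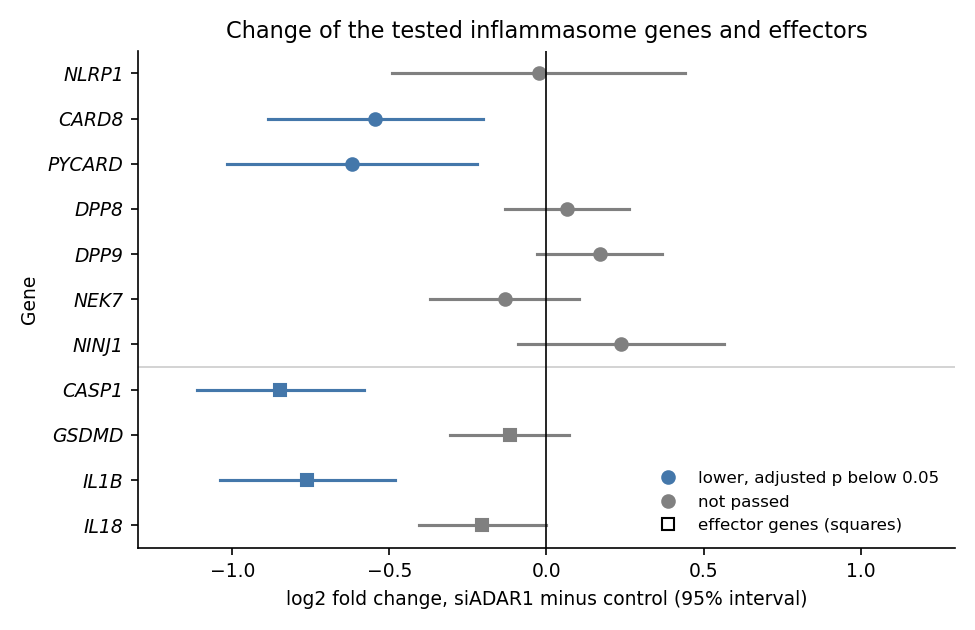
log2 fold change (siADAR1 minus control) with its 95% interval for the 7 tested sensors, adaptors and regulators (circles) and 4 effector genes (squares); blue marks an adjusted p below 0.05 and lower. The intervals of CARD8 and PYCARD lie below 0, and those of NLRP1, DPP8, DPP9, NEK7 and NINJ1 span it.

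**Figure D3:**
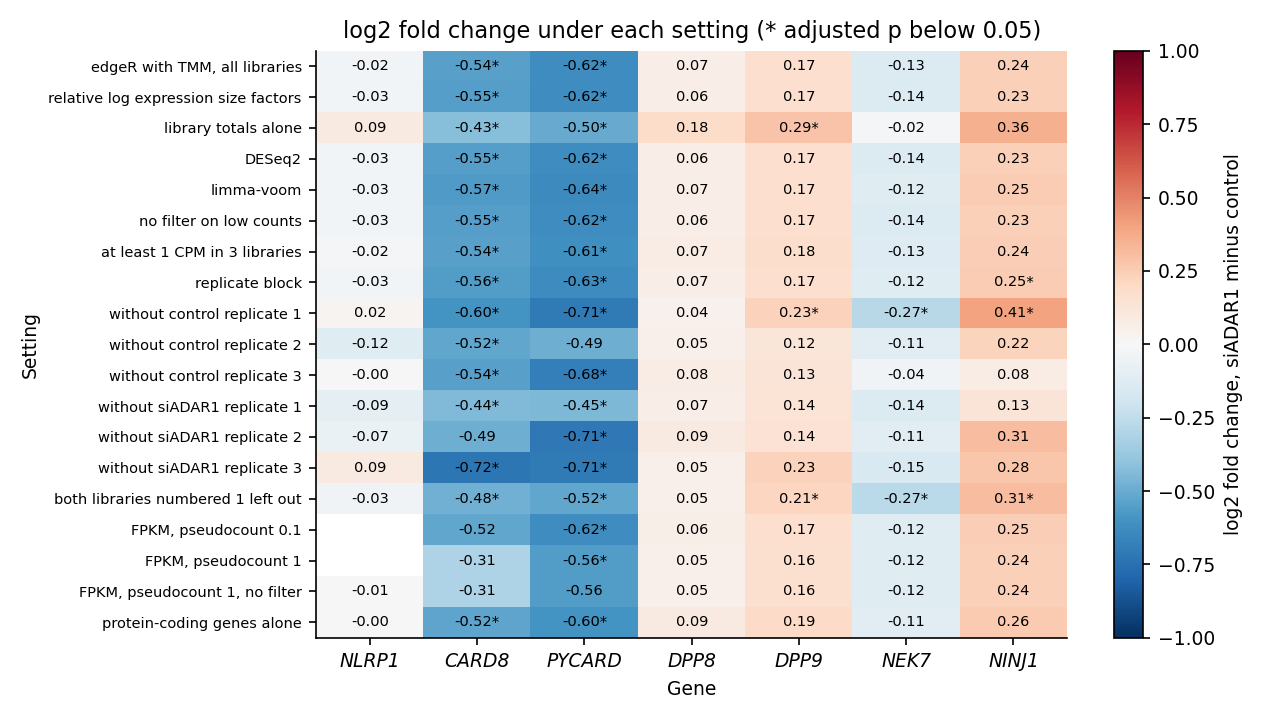
log2 fold change of the 7 tested genes (columns) under the reported fit and each alternative (rows), with an asterisk for an adjusted p below 0.05 and a blank where a gene was not tested. PYCARD and CARD8 are negative in each row, NLRP1 changes sign, and DPP9, NEK7 and NINJ1 all pass in the 2 rows that leave out control replicate 1.

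Genes listed as inflammasome effectors, not all of them tied to PYCARD or CARD8, included falls, a rise and values near control. Of 8 tested effectors, 3 were lower (CASP1, IL1B and GSDME) and 1 was higher, IL1A, named after its values were seen, which went from 71.3 ± 21.8 to 145.4 ± 20.6 CPM (SD, n = 3). CASP1, the inflammasome protease, stood at 71.8, 88.7 and 71.1 CPM in control and at 36.5, 45.5 and 46.7 CPM in siADAR1. It fell by 0.85 ± 0.12 (SE) on the log2 scale, with an edgeR adjusted p of 9.55e-05. In both CASP1 and PYCARD control replicate 2 was highest and siADAR1 replicate 1 lowest. IL1B, a cytokine precursor, fell by 0.76 ± 0.13, while GSDMD, the pore-forming substrate, had a log2 fold change of -0.12 ± 0.09 with an adjusted p of 0.285. IL18 had -0.20 ± 0.09 with an adjusted p of 0.0841, although its groups did not overlap, and passed without control replicate 1 (-0.24, adjusted p = 0.0483). Of 2 tested decoy genes with a CARD alone, CARD16 went from 18.6 ± 3.26 to 28.0 ± 0.923 CPM (SD, n = 3), a rise of 0.60 ± 0.14 on the log2 scale. CARD16 is a near copy of the start of CASP1, so reads may be split between them in the authors' counting. That makes the CARD16 value uncertain and may also affect that of CASP1. Gene counts do not measure cleavage, oligomers or cell death.

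Of 19 other genes listed as sensors, not all of them known to form inflammasomes, 6 had enough counts to be tested. Among these, 3 were higher and 0 lower in edgeR, beside 26.0% and 25.0% over all tested genes. The number lower was also 0 with DESeq2 and limma-voom and at an unadjusted p below 0.05. The median log2 fold change of the 6 was 0.63. NOD2 (0.81), NAIP (0.07) and NLRP2 (-0.08), named after their values were seen, did not pass. NOD2 had 13, 17 and 9 counts in control and 34, 20 and 19 in siADAR1. IFI16, a DNA sensor of the same family as AIM2, went from 45.5 ± 9.02 to 102.4 ± 9.73 CPM (SD, n = 3) and rose by 1.17 ± 0.14 (SE) on the log2 scale. NLRC5 rose by 1.36 ± 0.22 and NLRX1 by 0.45 ± 0.14, the first known as an activator of MHC class I genes and the second as a mitochondrial member of the family. The NLRX1 call was lost without control replicate 2, control replicate 3 or siADAR1 replicate 1 (adjusted p of 0.0778, 0.0558 and 0.0660). MEFV, which encodes pyrin, had no count.

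Genes listed as regulators of NLRP3 and NLRP1 were higher or lower in near equal number. Of 15 tested NLRP3 licensing factors, 3 were higher, 5 lower and 7 not past the threshold. Their median log2 fold change was -0.12. HSP90AB1, a chaperone that keeps NLRP3 competent, fell by 0.73 ± 0.09 (SE). FBXL2, a ubiquitin ligase subunit that marks NLRP3 for degradation, rose by 0.70 ± 0.12, and TXNIP, a thioredoxin-binding protein linked to NLRP3, by 2.48 ± 0.20. The other calls in that list, named after their values were seen, were GSK3B as higher and BRCC3, PANX1, HSP90AA1 and KCNK6 as lower. Of 12 tested genes listed as NLRP1 upstream factors, 3 were higher, 3 lower and 6 not past the threshold, and their median was -0.03. Not all of them are known to act on NLRP1. TXN, the thioredoxin that binds and restrains NLRP1, fell by 0.62 ± 0.08, from 555.7 ± 44.7 to 362.8 ± 9.64 CPM (SD, n = 3). EIF2AK2, which encodes the double-stranded RNA kinase PKR, fell by 0.46 ± 0.09, and UBR2, a ubiquitin ligase of the N-degron pathway, rose by 0.96 ± 0.09. MAP3K20, the ribotoxic stress kinase ZAK that phosphorylates NLRP1, had a log2 fold change of -0.04 ± 0.10 and was named after its values were seen, as were KCMF1 and NMT2 (higher) and DHX33 (lower).

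Relatives of DPP9, NEK7 and NINJ1 gave a mixed picture. Of 6 tested peptidases related to DPP8 and DPP9, 2 were higher and 1 lower, with a median log2 fold change of 0.06. PREPL had 0.33 ± 0.11 (SE) and PRCP -0.26 ± 0.10. PREPL passed in 14 of 18 alternatives and not without control replicate 1 or siADAR1 replicate 1 (adjusted p of 0.0655 and 0.0839). PRCP passed in 7 of 18, and of the single libraries only control replicate 1 could be left out without losing the call, at adjusted p up to 0.127. FAP, named after its values were seen, was the second higher gene, with 5, 0 and 5 counts in control and 21, 12 and 19 in siADAR1. It passed the filter on low counts through siADAR1 alone, so its call was favoured by the filter. Of 9 tested NIMA-related kinases other than NEK7, 2 were higher and 1 lower, with a median of 0.12. NEK2, a centrosome kinase of dividing cells, fell by 1.04 ± 0.13, while NEK8 and NEK1, both known from cilia, rose by 1.05 ± 0.14 and 0.65 ± 0.14. Of 16 tested genes for membrane rupture and ESCRT repair, which patches gasdermin pores, 8 were higher and 4 lower, with a median of 0.09. The number higher was 3 or 4 when any 1 library was left out. CHMP3 fell by 0.78 ± 0.11 and CHMP7 by 0.43 ± 0.10, with CHMP1A and CHMP5, named after their values were seen, the other two lower, and the counts-based value of CHMP4A was 2.26 ± 0.43. CHMP4A had 10, 6 and 5 counts in control and 33, 27 and 47 in siADAR1, passed the filter on low counts through siADAR1 alone, and had 0.67 on FPKM with a pseudocount of 1. NINJ2, the paralog of NINJ1, had too few counts to be tested. The lists were picked for function, and their counts are read beside the 26.0% higher and 25.0% lower over all tested genes.

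**Figure D4:**
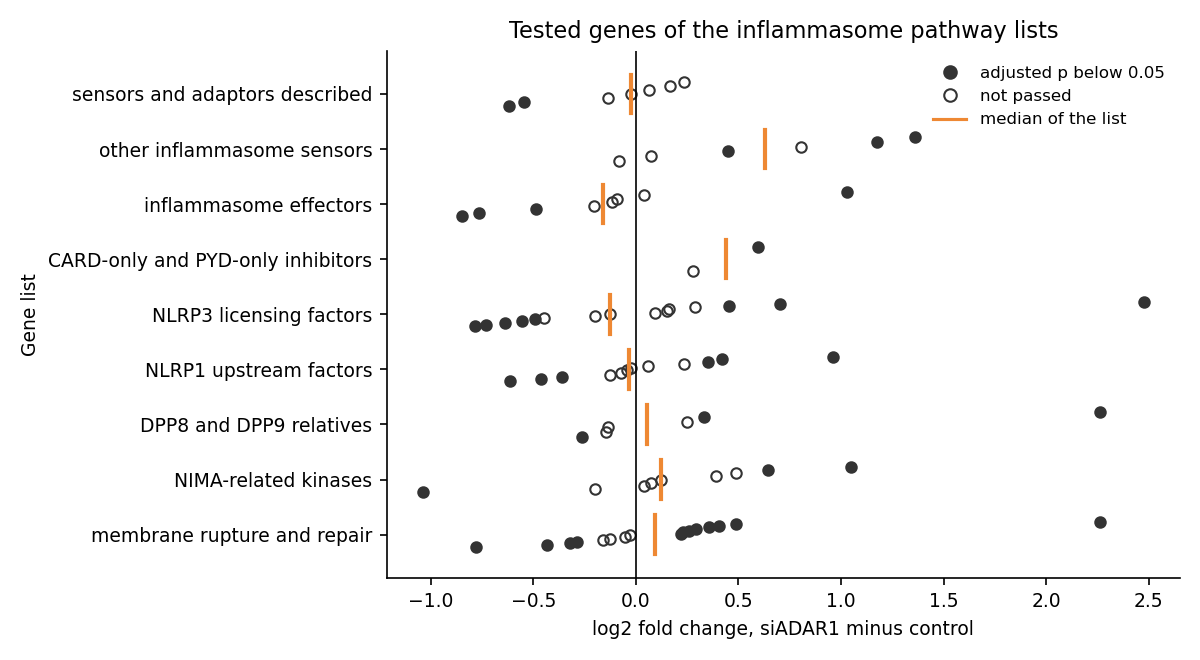
log2 fold change (siADAR1 minus control) of each tested gene in 9 lists, with filled dots for an adjusted p below 0.05, open dots for genes that did not pass, and an orange bar at each median. The genes described here span -0.62 to 0.24, a narrower range than the licensing factors, which reach 2.48.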

How the data were processed

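Polyadenylated RNA of 6 KYSE410 libraries was sequenced, 3 per group. The submitters' processing notes list the tools CASAVA, fastp and HISAT2 2.0.5 without saying what each did. For the counting tool, strand setting and build, nothing was given in the sources used here. The authors deposited whole read counts per gene, without normalization, and FPKM values with a library factor of their own, per the file headers and the values. All 58735 gene coordinates equalled GENCODE release 29 on GRCh38. Groups and replicate numbers came from the titles.

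Counts were fitted over the whole table in R 4.3.3 with edgeR 4.0.16: filterByExpr (minimum count 10), TMM scaling, its robust quasi-likelihood F test on group alone, and Benjamini-Hochberg adjustment over 15294 genes at 0.05. CPM uses the scaled library sizes. The SE is the log2 fold change over the root of F. Alternatives were DESeq2 1.42.0, limma 3.58.1 on counts and on log2(FPKM + pseudocount), other scalings and filters, a replicate block, and each library left out. The fit was tested on simulated data with 200 changed genes. That is far fewer than the 7804 called here, so the simulation does not test the scaling at such a share.

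The genes described, the lists and the alternatives were chosen with earlier results of these data known. Named genes were the 10 genes, ADAR, CASP1, GSDMD, IL1B, IL18 and, from each other list, up to 3 that passed with the smallest p and a mean of at least 1 CPM.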

Additional observations from a re-analysis of the deposited data

How the results depend on the processing

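Over 18 alternatives, PYCARD had a lower level in siADAR1 in each and passed in 16, and CARD8 passed in 14. The number of the 10 genes that were higher went from 0 to 1 with library totals alone, to 1 with the replicate block (NINJ1), to 2 without both libraries numbered 1 (DPP9 and NINJ1), and to 0 to 2 when 1 library was left out. The number lower went from 2 to 1 on FPKM with a pseudocount of 0.1 or 1, to 0 on FPKM with no filter, and to 1 to 3 when 1 library was left out. It was 3 without both libraries numbered 1, with NEK7 added. The median log2 fold change of the tested genes was 0.0937 with library totals alone, which is the value of NLRP1 there, -0.0824 without a filter on low counts, where 10 genes entered, and -0.114 to 0.0238 when 1 library was left out. NLRP1 ranged from -0.117 to 0.0864 when 1 library was left out. GSDMD was 9.07e-05 with library totals alone. The cause of these shifts was not tested. Numbers of higher and lower peptidase relatives ranged from 0 to 3 and 0 to 2, and of higher and lower repair genes from 3 to 8 and 2 to 5, over all settings. NLRP1 has no value on filtered FPKM.

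The replicate numbers were not taken to pair libraries: deviations from the group mean correlated at 0.251, 0.0844 and 0.106 for libraries numbered 1, 2 and 3, and control replicate 2 correlated best with siADAR1 replicate 3 (0.0917), so not every library correlated best with its own number. With the replicate block, 8582 genes were called in place of 7804, and NINJ1 passed (0.25, adjusted p = 0.0411). Depth limits NLRP3, NLRC4 and AIM2, which lie around 3 counts per library.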

Other observations

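The balance of DPP9 to the sensors it restrains, and of CASP1 to PYCARD, was read within libraries as a ratio of FPKM. The 3 pairs were chosen after the values were seen. DPP9 stood at 12.5, 9.70 and 10.1 times CARD8 in control and at 21.5, 19.9 and 13.1 times in siADAR1. Against NLRP1, DPP9 stood at 45.3, 48.1 and 40.7 times in control and 48.7, 49.5 and 55.4 times in siADAR1. CASP1 stood at 2.24, 2.10 and 2.14 times PYCARD in control and 2.08, 1.73 and 1.77 times in siADAR1. Groups did not overlap in any of the 3 ratios. In CPM they did not overlap for 60.3% of single tested genes, with CARD8, PYCARD and CASP1 among them. How often that holds for other pairs of genes was not tested. A two-sided exact permutation test gave p = 0.1 for each ratio, also 0.1 after adjustment over the 3, and 0.1 is the smallest value that 3 against 3 libraries can give. The size of a ratio also depends on the exon length used for each gene. That of CASP1 to PYCARD may also depend on reads shared with CARD16. Ratios of transcripts do not give ratios of proteins.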
